A study of Mus musculus with 3 samples.

Results

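The transcripts described here are those of 7 mouse genes whose proteins read or erase N6-methyladenosine (m6A), the methyl mark found on adenosines in mRNA: the readers Ythdc1, Ythdc2, Ythdf1, Ythdf2 and Igf2bp1, and the erasers Alkbh5 and Fto. They were found by gene symbol in 2 tables of transcripts, and every listed transcript was taken. The 7 genes are among 8547 gene symbols in the tables, and they held 15 of the 13595 transcripts listed. RIP-seq measured the RNA pulled down with Mettl3 and, separately, with Zfp217 (sequencing of RNA recovered with an antibody) in nuclei of untreated CCE cells, a line of mouse embryonic stem cells grown without feeder cells and with LIF. There were 3 libraries: 1 Mettl3 RIP, 1 Zfp217 RIP and 1 Input, which carried no antibody label. With 1 library per group nothing was replicated, so p-values are not given and each ratio sets 1 library against another. No pulldown with a control antibody was analysed here, so a ratio above 1 does not separate RNA held by the antibody's target from RNA held by other means.

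In the m6A pathway, a nuclear enzyme whose catalytic subunit is Mettl3 writes the mark while mRNA is made. Proteins with a YTH domain bind the methylated base: Ythdc1 works in the nucleus, in splicing and export, Ythdf1 and Ythdf2 work mainly in the cytoplasm, in translation and decay, and Ythdc2 also carries a helicase. Igf2bp1 is an RNA-binding protein that stabilizes mRNAs. Fto and Alkbh5 are oxygenases that remove the mark, and Zfp217 is a chromatin-associated zinc finger protein, which the series studies for its role in m6A. The values below are for the mRNAs of these genes, not for their proteins, and no m6A was measured in these libraries.

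The transcripts listed differ in how they are spliced, and the sequences at the places where they differ are shown first. All 3 protein-coding Ythdc1 transcripts of GENCODE M21 splice out the introns at chr5:86828122-86830553 (2432 bases) and chr5:86830637-86831663 (1027 bases) in GRCm38, plus strand. These are introns 10 and 11 of the 15 in ENSMUST00000119339. The retained-intron transcript ENSMUST00000151489 keeps both. The nonsense-mediated decay transcript ENSMUST00000156363 keeps the first 1358 bases of intron 10 and splices at a donor inside it. The donors and acceptors are given 5′ to 3′, with the first and last bases of the intron in capitals.
Intron 10 donor (chr5:86828110-86828136): ggatgtgggaagGTtagaaacgttctt
Intron 10 acceptor (chr5:86830536-86830562): tgtgtctaatttgtgtAGgcgtcgacc
Donor inside intron 10 used by ENSMUST00000156363 (chr5:86829468-86829494): tacaagaaagcgGTatgtttattttat
Intron 11 donor (chr5:86830625-86830651): accagagaccagGTtaatattttataa
Intron 11 acceptor (chr5:86831646-86831672): tgcttgatgtttgaacAGggtatgtaa

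Ythdf2 (minus strand of chromosome 4) has an exon of 1584 bases at chr4:132204132-132205715 that holds 91.2% of the 1737 coding bases of ENSMUST00000152796. The transcript ENSMUST00000085181 lacks this exon and has 153 coding bases. Their sequences part at the junction below, where capitals mark the last base before it and the first base after it.
Junction into the exon, ENSMUST00000152796: cacaggcaaggccGAataatgcatatac
Junction past the exon, ENSMUST00000085181: cacaggcaaggccGGaacgtcaaggtcg

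**Figure D1:**
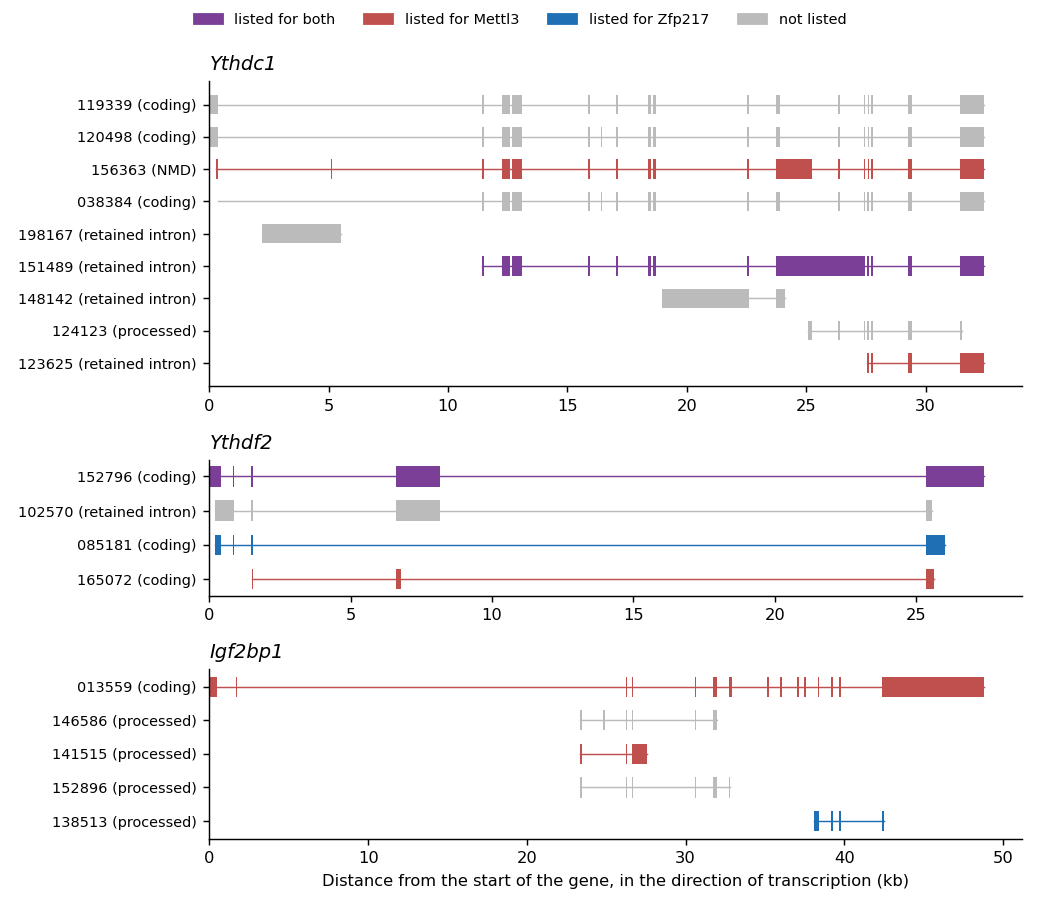
Exons (boxes) of the GENCODE M21 transcripts of Ythdc1, Ythdf2 and Igf2bp1 against distance from the start of the gene in kb, named by the last 6 digits of the Ensembl number and coloured by the table that lists them. No coding Ythdc1 transcript was listed, and the listed noncoding Igf2bp1 transcripts come from separate stretches of the gene.

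Each table gave 1 RIP and the Input in FPKM, that is, fragments per kilobase of a transcript and per unit of sequencing depth, for single Ensembl transcripts. The lowest RIP value was 1.0 FPKM and the lowest ratio over an Input above 0 was 1.5 in both tables, so a transcript that was not listed has no value here and may be unchanged, lower or weak. Estimated depth was 9225000 fragments for the Mettl3 RIP, 6650000 for the Zfp217 RIP and 5550000 for the Input. Of 8 embryonic stem cell markers, 6 were listed in each table (Pou5f1, Nanog, Sox2, Esrrb, Dppa4 and Klf4), while Zfp42 and Tdgf1 were not. For Klf4, Dppa4 and the most abundant Esrrb transcript, the Input was at or under 0.0118 FPKM in both tables. None of 6 fibroblast and 8 differentiation markers was listed, which for tables of this kind shows only that they were not listed. Intervals below are 95% exact (Clopper-Pearson) intervals of a ratio from estimated reads. They cover counting error only, not the splitting of reads between overlapping transcripts of a gene, and PCR copies are not independent molecules. Since no ratio under 1.5 was listed, an interval above 1 is no test of whether a transcript was higher in the RIP.

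The Mettl3 table listed all 7 genes, with 12 transcripts, and the Zfp217 table listed Ythdc1, Ythdf2 and Igf2bp1, with 5 transcripts. Of all 21924 protein-coding symbols in GENCODE M21, expressed in these cells or not, 25.2% were listed for Mettl3 and 21.6% for Zfp217. Of the 6681 listed in either table, 82.6% were listed for Mettl3 and 70.9% for Zfp217. Ythdc2, Ythdf1, Alkbh5 and Fto were not listed for Zfp217. Only 2 transcripts, 1 of Ythdc1 and 1 of Ythdf2, were in both tables.

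**Figure D2:**
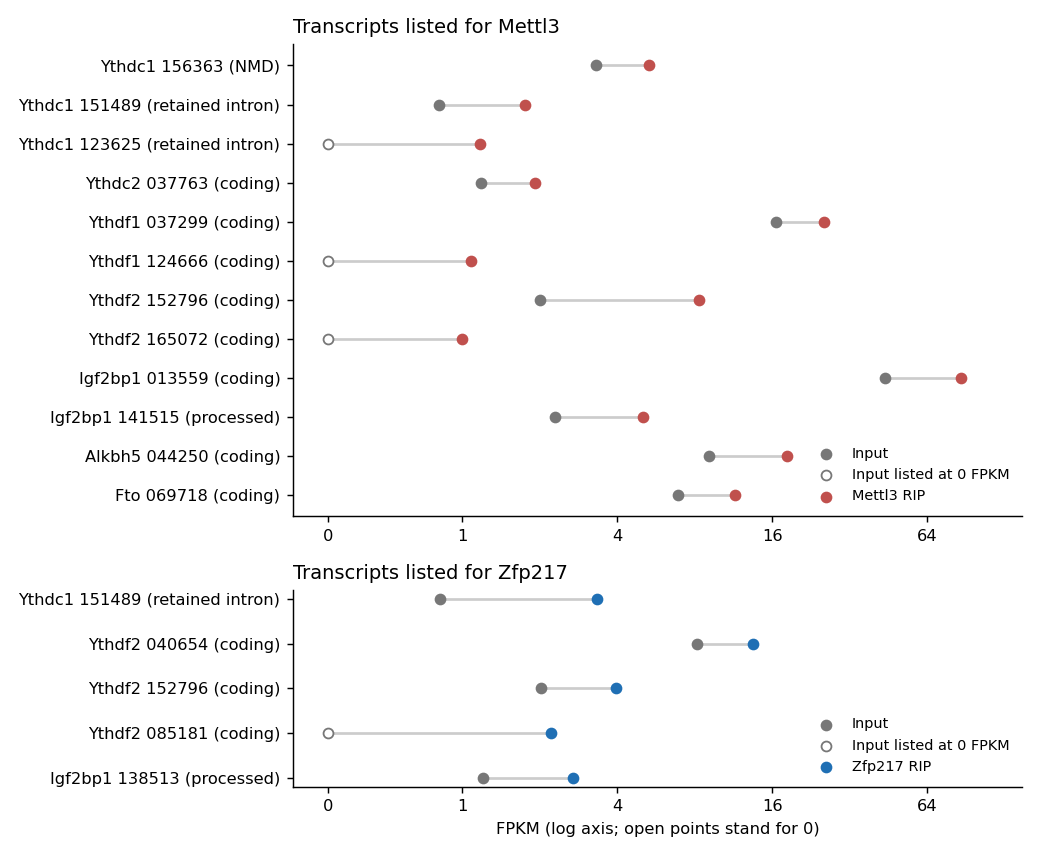
FPKM (log axis) in the Input and in the RIP of each listed transcript, named by gene and the last 6 digits of the Ensembl number; open points stand for an Input of 0 FPKM. In the Mettl3 panel Igf2bp1 was highest, at 86.7 FPKM, and 3 of the 12 Inputs were at 0.

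The first comparison set the level of these mRNAs in the Mettl3 RIP beside that in the Input. The largest ratio among those with a value in the Input was that of a coding Ythdf2 transcript, and the coding mRNAs of Igf2bp1 and Alkbh5 were about as far above the Input as the median transcript of the table. Ythdf1, Ythdc2 and the decay transcript of Ythdc1 were close to the lower limit of the table.

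The nuclear reader Ythdc1 (GRCm38, chr5:86804221-86836659, plus strand) was listed with 3 transcripts, none of them among its 3 coding ones. The retained-intron transcript ENSMUST00000151489, whose kept introns are shown above, was at 0.814 FPKM in the Input and 1.75 in the Mettl3 RIP. Its ratio was 2.15 (interval 1.42 to 3.43), from about 28.2 and 99.7 reads. The decay transcript ENSMUST00000156363 was at 3.30 FPKM in the Input and 5.32 in the RIP, a ratio of 1.61 (1.24 to 2.12). The intervals overlapped each other. Both lay above 1, which is no evidence of a higher level, since no ratio under 1.5 was listed. The remaining listed transcript, ENSMUST00000123625, which covers the last 4 exons with an altered start, was at 1.17 FPKM in the RIP and listed at 0 in the Input, and no fold is given. An Input of 0 can be a failed estimate where other transcripts of the gene take the reads.

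Ythdc2 (chromosome 18), a helicase reader best known from germ cells, had the lowest Input of the 7 genes in the Mettl3 table, summed over listed transcripts. Its coding transcript was at 1.18 FPKM in the Input and 1.92 in the Mettl3 RIP. The ratio was 1.63, with an interval of 1.16 to 2.33 from about 46.8 and 126 reads.

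Of the cytoplasmic readers, Ythdf1 (chr2:180904377-180920949, minus strand), which is linked to translation, had a coding mRNA at 16.6 FPKM in the Input and 25.5 in the RIP. Its ratio of 1.535 (1.34 to 1.77) was the lowest of the listed transcripts of these genes that had a value in the Input, and 95.4% of the 3725 transcripts with both values at least 1 FPKM had a higher one. A second Ythdf1 transcript of 596 bases was at 1.08 FPKM in the RIP, about 4.65 reads, and at 0 in the Input.

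Ythdf2 (chr4:132184912-132212303, minus strand), which is linked to mRNA decay, had the highest ratio through 1 of its less abundant transcripts. Its coding transcript ENSMUST00000152796 was at 2.00 FPKM in the Input and 8.29 in the Mettl3 RIP, from about 44.9 and 306 reads. The ratio was 4.14 (3.02 to 5.79), and 7.06% of transcripts with both values at least 1 FPKM were higher. This interval did not overlap that of Ythdf1. The most abundant Ythdf2 transcript in the tables, ENSMUST00000040654, at 8.18 FPKM in the Input of the Zfp217 table, was not listed for Mettl3. At that Input a ratio of 1.5 would have met both of the lowest values found in the Mettl3 table. Whether these were the only rules of listing is not known, so the Mettl3 ratio of ENSMUST00000040654 is not known either. The high ratio therefore describes ENSMUST00000152796 alone and cannot be extended to the gene as a whole. A Ythdf2 transcript of 520 bases, ENSMUST00000165072, was at 1.0 FPKM in the RIP, about 3.6 reads, and at 0 in the Input.

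Igf2bp1 (chr11:95957163-96005940, minus strand), an oncofetal mRNA stabilizer, was the most abundant of these mRNAs. Its coding transcript of 8378 bases was at 44.0 FPKM in the Input and 86.7 in the Mettl3 RIP, and 0.989% of the table's transcripts had a higher RIP value. The ratio was 1.97, with the narrowest interval of the group (1.88 to 2.07), from about 2030 and 6590 reads. A processed transcript without a reading frame, ENSMUST00000141515, was at 2.30 FPKM in the Input and 5.03 in the RIP. Its ratio of 2.19 had a wide interval, 1.12 to 4.25, which includes that of the coding transcript.

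Both erasers were listed for Mettl3, where only transcripts with a ratio of 1.5 or more over an Input above 0 were found. Alkbh5 (chr11:60536381-60558512, plus strand), a nuclear demethylase, was at 9.12 FPKM in the Input and 18.3 in the RIP, a ratio of 2.01 (1.75 to 2.30). Fto (chr8:91313525-91668439, plus strand), the other demethylase, was at 6.88 FPKM in the Input and 11.5 in the RIP, a ratio of 1.67 (1.36 to 2.05). The intervals overlapped, so at this depth the ratios of the erasers cannot be placed in order. Of the 7 annotated Fto transcripts 1 was listed, and of the 2 of Alkbh5 1.

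By Input level per length, in the Mettl3 table, the coding mRNAs stood in the order Igf2bp1, Ythdf1, Alkbh5, Fto, Ythdf2 (ENSMUST00000152796 alone) and Ythdc2. By ratio the order was Ythdf2, Alkbh5, Igf2bp1, Fto, Ythdc2 and Ythdf1. The ratio intervals of neighbours in the latter order overlapped, except those of Ythdf2 and Alkbh5.

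**Figure D3:**
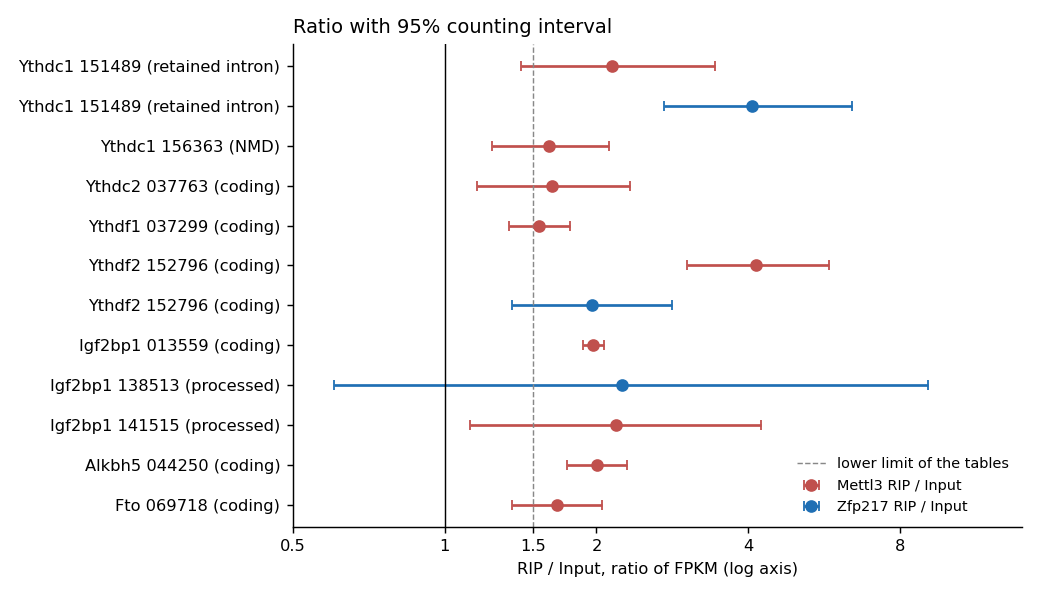
Ratio of RIP to Input FPKM (log axis) with 95% counting intervals for the listed transcripts with a value in the Input and a known length; the solid line marks 1 and the dashed line the lower limit of the tables. Ythdf2 was highest for Mettl3 (4.14), the retained-intron transcript of Ythdc1 was highest for Zfp217 (4.07) among those plotted, and the interval of Igf2bp1 ENSMUST00000138513 crosses 1.

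The second comparison did the same for the Zfp217 RIP. Among transcripts with a value in the Input, the retained-intron transcript of Ythdc1 had the largest ratio there, and coding mRNA was listed for Ythdf2 alone. The retained-intron transcript ENSMUST00000151489 was at 0.823 FPKM in the Input and 3.35 in the Zfp217 RIP, from about 28.2 and 138 reads. Its ratio was 4.07 (interval 2.72 to 6.42). The decay transcript of Ythdc1 and its coding transcripts were not listed.

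Ythdf2 was listed with 3 transcripts for Zfp217. The most abundant, ENSMUST00000040654, was at 8.18 FPKM in the Input and 13.5 in the RIP, a ratio of 1.65. It has no entry in GENCODE M21, so no length, read number or interval is given, and it was not listed for Mettl3. The coding transcript ENSMUST00000152796 was at 2.02 FPKM in the Input and 3.96 in the RIP, a ratio of 1.96 (1.36 to 2.83). The transcript without the long coding exon, ENSMUST00000085181, was at 2.22 FPKM in the RIP, about 12.2 reads, and listed at 0 in the Input.

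Igf2bp1 was listed for Zfp217 only with the processed transcript ENSMUST00000138513, from the 3′ part of the gene. It was at 1.20 FPKM in the Input and 2.70 in the RIP, a ratio of 2.25 with an interval of 0.602 to 9.11, from about 3.74 and 10.1 reads. A difference from the Input was not detectable for it at this depth. The processed transcript listed for Mettl3 lies at chr11:95978382-95982608 and the one listed for Zfp217 at chr11:95963436-95967835, and these stretches do not overlap. The coding mRNA of Igf2bp1 was not listed for Zfp217.

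The third comparison set the antibodies side by side for the 2 transcripts listed in both tables, which went opposite ways. Ythdf2 ENSMUST00000152796 had a ratio of 4.14 for Mettl3 and 1.96 for Zfp217, so its Mettl3 ratio was 2.11 times its Zfp217 ratio (interval 1.70 to 2.68). Ythdc1 ENSMUST00000151489 had a ratio of 2.15 for Mettl3 and 4.07 for Zfp217, so its Zfp217 ratio was 1.90 times its Mettl3 ratio (1.45 to 2.48). The Input library is shared by the tables and cancels in these quotients, so these intervals rest on the reads of the RIPs; the tables were scaled separately.

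Over the 2576 transcripts listed in both tables with an Input of at least 0.01 FPKM, the median quotient of the Mettl3 ratio to the Zfp217 ratio was 1.09. A larger quotient than that of Ythdf2 was found for 7.76% of them, and a smaller one than the 0.528 of Ythdc1 for 3.73%. The median was 1.04 over 237 retained-intron transcripts (quartiles 0.784 and 1.36) and 1.1 over 1940 protein-coding ones (0.872 and 1.45). The Ythdc1 transcript thus lay below the lower quartile of its class and the Ythdf2 transcript above the upper quartile of its own. The more abundant Ythdf2 transcript ENSMUST00000040654 was listed for Zfp217 (ratio 1.65) and not for Mettl3.

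To set the members beside the rest of each table, log2((RIP + 1)/(Input + 1)) in FPKM was used for transcripts with a mean of RIP and Input of at least 1 FPKM. A transcript was counted as at least 2-fold higher where this value was 1 or more. Such a scale understates the ratio of low transcripts. For Mettl3, 9 of the 12 transcripts were kept, and 1 of them, Ythdf2 ENSMUST00000152796, was at least 2-fold higher, against 51.1% of 6667 transcripts in the table. The median log2 ratio was 0.67 for the 9 and 1.02 for the table. For Zfp217, all 5 were kept and 2 were at least 2-fold higher (Ythdc1 ENSMUST00000151489 and Ythdf2 ENSMUST00000085181), against 49.1% of 5248. The medians were 0.75 and 0.98.

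Much of the table background has an Input at or near 0. Without Inputs under 0.01 FPKM, the count was 1 of 9 against 37.6% for Mettl3, and 1 of 4 against 28.4% for Zfp217. By the plain ratio of FPKM with such Inputs left out, 4 of 9 transcripts reached 2-fold for Mettl3 against 65.7% of the table, and 2 of 4 for Zfp217 against 57.6%. The median plain ratio of transcripts with both values at least 1 FPKM was 2.07 for Mettl3 and 1.87 for Zfp217. Among these transcripts, the median log2 ratio with 1 FPKM added was 0.77 for 8 members and 0.82 for all in the Mettl3 table. For Zfp217 it was 0.71 for 3 members and 0.69 for all, so most of the gap between the medians was gone.

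**Figure D4:**
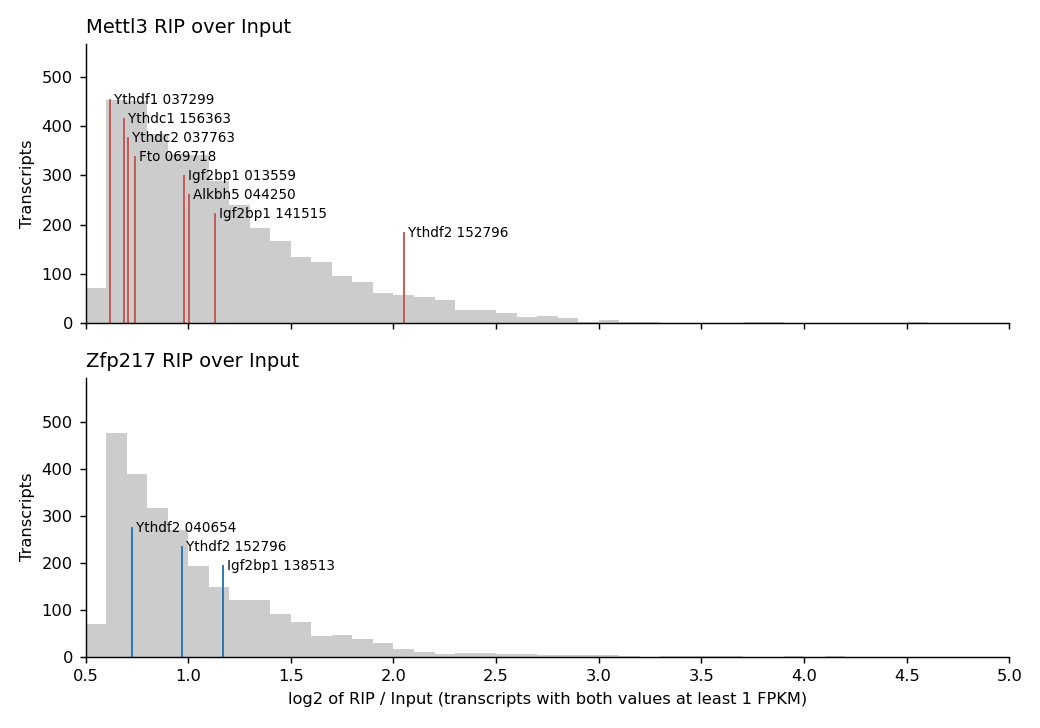
Number of transcripts by log2 of RIP over Input (bins of 0.1) among those with both values at least 1 FPKM, 3725 for Mettl3 and 2511 for Zfp217, with the transcripts of the readers and erasers as coloured lines. For Mettl3, Ythdf2 lies in the upper tail and 4 others lie near the lower limit.

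The other genes of the pathway were counted from 4 lists, each gene by its transcript of highest mean FPKM. A share over all genes counted in this way is not given. The 51.1% and 49.1% above are over kept transcripts. With transcripts summed per gene, the shares of all genes were 57.9% for Mettl3 and 55.9% for Zfp217. A gene could be listed only if it was higher in the RIP. The writer list held 10 genes, not all of them for parts of the Mettl3 enzyme (Pcif1 and Mettl16 are not). Of these 10, 7 were listed for Mettl3 and 4 of the 7 were at least 2-fold higher (median log2 ratio 1.68). For Zfp217, 7 were listed, 3 of them at least 2-fold higher (median 0.97). These counts include Pcif1 for both antibodies and Mettl16 for Zfp217, all listed at 0 in the Input. With a value in the Input, 3 writers reached 2-fold for Mettl3 (Mettl3, Cbll1 and Rbm15) and 1 for Zfp217 (Wtap). Of all kept transcripts with an Input of at least 0.01 FPKM, 37.6% and 28.4% did. The mRNA of Mettl3 itself was at 3.31 FPKM in the Input and 16.3 in the Mettl3 RIP (4.92-fold), and that of Cbll1, a subunit of the writer, at 2.67 and 11.6 FPKM (4.35-fold). Rbm15, a subunit that brings the writer to RNA, was at 8.68 FPKM in the Input and 29.99 in the Mettl3 RIP (3.46-fold). In the Zfp217 table the same transcript was at 8.77 and 17.6 FPKM (2.01-fold).

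Of 10 other reader genes, 8 were listed for Mettl3, 2 of them at least 2-fold higher (median 0.76), and 6 for Zfp217, 3 of them at least 2-fold higher (median 1.1). Those counted were Fmr1 and Ythdf3 for Mettl3, and Igf2bp2, Prrc2a and Ythdf3 for Zfp217, and Ythdf3 had an Input under 0.01 FPKM in both tables. A share of all genes counted in the same way is not given for these readers either. With transcripts summed per gene, which is another count, it was 57.9% for Mettl3 and 55.9% for Zfp217. Igf2bp2, a paralog of Igf2bp1, was not counted for Mettl3. Its transcript of highest mean there, a retained-intron one, was at 3.80 FPKM in the Input and 6.17 in the RIP (1.63-fold). The coding transcript behind its Zfp217 count was at 0.655 FPKM in the Input and 3.31 in the RIP (5.05-fold). The same coding transcript was at 0.648 and 3.47 FPKM for Mettl3 (5.35-fold), so the counts differ by the transcript used. Another coding transcript of Igf2bp2 was at 1.16 FPKM in the Input and 3.51 in the Mettl3 RIP (3.03-fold). Fmr1, an RNA-binding regulator of translation, was 2.29-fold higher for Mettl3 (4.69 against 10.7 FPKM) and 1.58-fold for Zfp217. A retained-intron transcript of Prrc2a was 1.64-fold higher for Mettl3 and 2.54-fold for Zfp217 (8.68 against 22.0 FPKM).

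Among 7 other genes of the AlkB family, to which Alkbh5 and Fto belong, 5 were listed for each antibody. Of those kept, 1 of 4 was at least 2-fold higher for Mettl3 and 1 of 3 for Zfp217, with medians of 0.63 and 0.48. Both calls rest on an Input under 0.01 FPKM (Alkbh8 for Mettl3 and Alkbh4 for Zfp217), and 0 genes of this family with a higher Input reached 2-fold by the transcript of highest mean. Alkbh1 had a coding transcript at 1.84 FPKM in the Input and 3.49 in the Mettl3 RIP (1.9-fold), and it was 1.61-fold higher for Zfp217. A decay transcript of Alkbh1 was at 1.18 FPKM in the Input and 2.88 in the Zfp217 RIP (2.44-fold), and was 1.59-fold higher for Mettl3. Of 9 partner genes of the readers, 4 were listed for Mettl3 and 2 for Zfp217, none at least 2-fold higher by the transcript of highest mean. For the AlkB family and the partners too, the shares at hand (57.9% and 55.9%) are over genes with transcripts summed, which is another count. Srsf10, a splicing factor that works with Ythdc1, was listed for both, and 1 of its less abundant transcripts was at 5.17 FPKM in the Input and 13.7 in the Mettl3 RIP (2.66-fold), and was 1.69-fold higher for Zfp217.

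Of the 2 transcripts in both tables, Ythdf2 ENSMUST00000152796 had the higher mean level. The transcripts nearest to it in log2(FPKM + 1) over the 3 libraries, among 2662 others kept in both tables, were those of Zmpste24, a protease that matures lamin A (distance 0.096), Gspt1, a translation termination factor (0.142), and F2r, a thrombin receptor (0.156). Zmpste24 was at 2.21 FPKM in the Input, 8.33 in the Mettl3 RIP and 3.94 in the Zfp217 RIP.

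Sequence features were read from the 14 transcripts found in GENCODE M21. The motif GGACT, the commonest form of the site that the m6A enzyme methylates, was counted on the sense strand, and a match is no evidence of methylation. It occurred 10 times in the Igf2bp1 and Alkbh5 coding mRNAs (1.19 and 1.75 per kb), 5 times in Ythdf2 ENSMUST00000152796 (1.21), 3 times each in Fto (0.842) and Ythdc2 (0.416), and 1 time in Ythdf1 (0.314). The median was 0.972 per kb over 5593 protein-coding transcripts of the Mettl3 table (quartiles 0.561 and 1.43). Of all protein-coding transcripts in GENCODE M21, 78.7% held the motif, and 98.1% of those with 3000 to 9000 bases did. Ythdf1 had the lowest motif density of these 6 mRNAs and the lowest ratio for Mettl3, with an interval that overlapped those of Ythdc2 and Fto. Alkbh5 had the highest density of the 6 at a ratio of 2.01, below that of Ythdf2. The density of Ythdf2, with the highest ratio, was near that of Igf2bp1. Among the other transcripts with a Mettl3 ratio, the decay transcript of Ythdc1 held 2.07 motifs per kb (ratio 1.61). The retained-intron transcript of Ythdc1 held 1.43 (ratio 2.15), and Igf2bp1 ENSMUST00000141515 held 1.81 (ratio 2.19). This is a description only of the 6 mRNAs and of these transcripts.

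m6A is known to be frequent near stop codons, so the GGACT nearest to the stop codon is shown for 5 of these coding mRNAs (that of Ythdc2 is not shown here), 5′ to 3′, with the motif in capitals and GRCm38 coordinates. Distances run from the first base of the stop codon to the first base of the motif.
Alkbh5, 20 bases after (chr11:60554425-60554445, plus): ccctcttgGGACTctggctaa
Ythdf2, 80 bases after (chr4:132186834-132186854, minus): gaaaattaGGACTttttttct
Fto, 131 bases before (chr8:91666294-91666314, plus): agtcgtccGGACTttaccagt
Ythdf1, 310 bases before (chr2:180910960-180910980, minus): tcccctgtGGACTacggcacc
Igf2bp1, 1209 bases after (chr11:95962281-95962301, minus): tggtggtcGGACTacaaccca
Alkbh5 and Ythdf2 thus hold a motif within 100 bases of the stop codon. In Igf2bp1, where 20.7% of the mRNA is coding, all 10 motifs lie after it. The share of other mRNAs with a motif so placed was not counted, so these positions are a description only.

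The 6 coding mRNAs just compared ran from 3184 bases (Ythdf1) to 8378 bases (Igf2bp1), against a median of 3160 bases for protein-coding transcripts of the table. The coding part made up 20.7% of the Alkbh5 and Igf2bp1 mRNAs, 42.1% of Ythdf2, 42.3% of Fto, 52.7% of Ythdf1 and 60.1% of Ythdc2. GC content ran from 42.0% in Ythdc2 to 52.1% in Fto, around the table's median of 48.4%, and was 37.6% in the retained-intron transcript of Ythdc1.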

How the data were processed

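Both tables hold deposited FPKM values, 1 column for the Input and 1 for a RIP, by Ensembl transcript, with symbol, class and a log2 fold change. The unit is read from the tools named, since the tables do not print it. Per the submitters' processing notes, the tools were TopHat2 2.0.8, Bowtie2, Cuffdiff, Cufflinks and CASAVA 1.4, and the build was mm9; what each did is not given in the sources read. The log2 fold changes that the authors deposited lay within 0.00466 of those recomputed from FPKM, and an Input of 0 was coded as infinite. The same Input library is scaled differently in each (median quotient of its values, Mettl3 over Zfp217 table, 0.989 over 2813 transcripts), so ratios were taken within a table.

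Reads were estimated from FPKM, length and fragment number. Whole multiples of 1 read were sought in short noncoding RNAs (110 to 400 bases), with a shared fragment length (mean 131, SD 25 bases). Of the distinct values, 46 of 96 (Mettl3), 43 of 96 (Zfp217) and 13 of 27 (Input) came out as 1 to 4 reads within 1.5%, so depths are approximate. The fit was run on simulated data in which every value was a whole number of reads. That check does not show how well it works where many values are not, as may be the case here. GENCODE M21 on GRCm38 gave sequences, lengths and coordinates, none taken from mm9; it held 12054 of 13595 transcripts. No fold is given for Inputs under 0.01 FPKM. All listed transcripts of the 7 genes are named, pathway genes by the highest log2 ratio with both values at least 1 FPKM, and up to 3 per list, with the other antibody's value beside some; genes named as making up a count were chosen after their values were seen. Members and lists were chosen with earlier results of these data known. Python 3.11.15, pandas 2.3.3 and scipy 1.17.1 were used.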

Additional observations from a re-analysis of the deposited data

How the results depend on the processing

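The share of the table at the same setting is given in brackets after each count. The Mettl3 count of 1 of 9 member transcripts at least 2-fold higher (51.1%) became 3 of 9 (69.0%) with a pseudocount of 0.1 FPKM. It was 4 of 12 (57.7%) with no filter on low values, and 0 of 8 (17.4%) with the RIP divided by the median ratio of the table (2.07). It stayed 1 of 9 with a pseudocount of 0.5 FPKM (60.4%) and without Inputs under 0.01 FPKM (37.6%). With both values at least 1 FPKM it was 1 of 8 (33.8%), and per gene 1 of 7 (57.9%). The Zfp217 count of 2 of 5 (49.1%) became 0 of 3 (20.7%) with both values at least 1 FPKM. It was 1 of 4 (28.4%) without Inputs under 0.01 FPKM, and 0 of 4 (22.1%) with the RIP divided by the median ratio (1.87). With transcripts summed per gene it was 1 of 3 (55.9%), and with a pseudocount of 0.1 FPKM 3 of 5 (64.5%). It stayed 2 of 5 with a pseudocount of 0.5 FPKM (57.0%) and with no filter (58.4%). The median log2 ratio for Mettl3 (0.67) was 0.98 and 0.77 with pseudocounts of 0.1 and 0.5 FPKM, 0.90 with no filter, 0.77 with both values at least 1 FPKM, 0.85 per gene and -0.12 after division by the median ratio. That for Zfp217 (0.75) was 1.11 and 0.91 with the pseudocounts, 0.71 with both values at least 1 FPKM, 0.73 without Inputs under 0.01 FPKM, 0.89 per gene and 0.10 after division. The division moved the median of all kept transcripts from 1.02 to 0.12 for Mettl3 and from 0.98 to 0.15 for Zfp217, and 7 of 17 single values then lay below 0. Without Inputs under 0.01 FPKM the table medians were 0.86 for Mettl3 and 0.74 for Zfp217. With both values at least 1 FPKM they were 0.82 and 0.69, near the 0.77 and 0.71 of the members. They were 1.38 for both antibodies with a pseudocount of 0.1 FPKM, and 1.18 and 1.17 with 0.5 FPKM. With no filter they were 1.08 and 1.1, and per gene 1.12 for both. The cause of these changes was not tested. No paired analysis was possible because each group has 1 library. Depth limits the transcripts of few reads most: ENSMUST00000138513 of Igf2bp1 and those listed at 0 in the Input.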

Other observations

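Ythdf3, the remaining cytoplasmic YTH reader and not among the 7 genes, is named here after its values were seen. Its coding transcript ENSMUST00000108345 was at 17.4 FPKM in the Mettl3 RIP and 7.52 in the Zfp217 RIP, with 0.000244 and 0.000288 FPKM in the Input of the respective tables, and no fold is given against so low an Input. It was thus listed in both tables, while Ythdf1, whose coding mRNA was at 16.6 FPKM in the Input, was listed for Mettl3 alone. With Inputs so unlike, the listings of these genes cannot be compared.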
